A study of Mus musculus with 8 samples.

Results

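The S100 proteins, the annexins and the scaffold protein Ahnak were followed in pre-BII cells of mice with and without the transcription regulators Aiolos and OBF-1. The genes S100a10, S100a4, S100a6, S100a11, S100a13, Anxa1, Anxa2, Anxa5, Anxa6 and Ahnak were listed, and every probe set that the array annotation gives to one of them was read. This gave 17 probe sets for 9 of the 10 genes, of 22626 probe sets tested, and 1 further probe set that S100a11 shares with 2 other loci, S100a11-ps and Gm12854. S100a10 and Ahnak were put on the list for their opposite changes in the absence of Aiolos. Their values in any comparison that removes Aiolos are therefore a description, and no test is given for them there.

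Expression was measured on MOE430A GeneChips in 4 genotypes, the wild type, mice lacking only OBF-1 (OBF-1-deficient, the OBF-1 single mutant), mice lacking only Aiolos (Aiolos-deficient, the Aiolos single mutant) and mice lacking both (double-deficient, the double mutant), each of the Bl6 strain, 7 weeks old and with 2 arrays. The labels describe whole bone marrow, in the mutants that of a single deletion mouse, whereas the authors describe B220+ CD25+ pre-BII cells sorted from independent pools of mice. The authors' description is followed here, and p-values measure the spread between such pools only if it holds. The deletions are germ line, so that all cells of the mutant mice lack the gene. Each value is the RMA intensity of a probe set on a linear scale, and 40.4 to 41.1% of the probe sets on an array had an intensity of at least 100. Every difference is given on the log2 scale from limma with Benjamini-Hochberg adjustment over all 22626 probe sets. An adjusted p under 0.05 counted as a change. Fluidics station 2 was used for the 4 arrays with Aiolos and station 1 for the 4 arrays without it. Within each station the 2 arrays with OBF-1 ran on modules 1 and 2 and the 2 arrays without it on modules 3 and 4. The effect of the station and that of losing Aiolos therefore cannot be told apart, nor can that of the module and that of losing OBF-1. The arrays were scanned in the order wild type, OBF-1 single mutant, Aiolos single mutant and double mutant. Scan order and genotype cannot be told apart either.

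Pou2af1, which encodes OBF-1, had intensities of 2761 and 2678 in wild type and of 2434 and 2842 in Aiolos-deficient cells. It had 241 and 236 in OBF-1-deficient cells and 170 and 273 in double-deficient cells. The arrays labelled as lacking OBF-1 thus lay far below the others. No probe set was matched to Ikzf3, which encodes Aiolos. Of the 10 pre-B cell markers 9 were measured, 8 of them with a mean intensity of at least 100, and they did not move as a block: between the double mutant and wild type 3 passed as higher (Il2ra, which encodes CD25, Rag2 and Blnk) and 3 as lower (Vpreb3, Cd79b and Ebf1). Their summed level was 27461 to 27981 in wild type, 22915 to 23448 in OBF-1-deficient cells, 25903 to 26867 in Aiolos-deficient cells and 20920 to 21112 in double-deficient cells. Vpreb3 (means of 5909 in wild type and 1798 in the double mutant) and Cd79b (6213 and 3553) had the largest falls within this sum. Of 15 granulocyte and monocyte markers all 15 were measured, 13 with a mean of at least 100. Their summed level was 24719 to 25038 in wild type, 30381 to 34457 in OBF-1-deficient cells, 28084 to 28912 in Aiolos-deficient cells and 30381 to 31082 in double-deficient cells. Signal of these markers was therefore present in all genotypes, and their sum lay lowest in wild type. The sum follows its brightest genes, S100a9, S100a8 and Ngp (wild type means of 5990, 4620 and 4352). Not every marker ran this way, since Tyrobp had means of 680 in wild type, 646 in Aiolos-deficient and 656 in double-deficient cells. The summed level of the 5 mature B cell markers measured, of 7, went from 5396 to 5612 in wild type down to 2271 to 2533 in double-deficient cells, and that of the 5 plasma cell markers from 2729 to 2954 up to 4180 to 4518. These sums follow their brightest genes, Ms4a1 (means of 2450 and 615) and Cd74 (2611 and 1320), and Irf4 (1593 and 2567) and Sdc1 (405 and 797). Of the mature B cell markers 3 passed as lower and 2 did not pass, with Ccr7 at 351 and 396. Of the plasma cell markers 2 passed as higher and 3 did not pass. Between the double mutant and wild type 8.57% of all probe sets passed. In bulk samples, fewer cells of a type and less RNA per cell cannot be told apart.

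S100 proteins are small calcium-binding proteins with paired EF-hands that form dimers and, on binding calcium, dock onto target proteins. Annexins are a separate family that binds acidic phospholipids of membranes when calcium rises. The families meet in a complex in which an S100A10 dimer joins annexin A2 molecules at the membrane, and Ahnak, a very large scaffold protein beneath the plasma membrane, is a known ligand of that complex. S100A10 is unusual in its family, since it is held in the active shape without calcium. In the mouse genome S100a13, S100a4 and S100a6 stand in 1 unbroken row of S100 genes on chromosome 3, from S100a1 to S100a9, and S100a11 and S100a10 are direct neighbours farther along the same chromosome.

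Ahnak, Anxa1 and Anxa5 were the members whose higher mean level without OBF-1 passed the test, and the 250 bases before the start of these 3 genes are shown to let their sequence be set beside their values. For Ahnak this mean includes the arrays without Aiolos on which it was chosen, so its pass is not independent of the choice. Between the OBF-1 single mutant and wild type alone Ahnak did not pass (0.27, adjusted p = 0.244 from limma). The sequences come from RefSeq on GRCm38.p6, are written from 5′ to 3′ on the strand of the gene, and carry in capitals the letters TGGGAA, a core recognised by zinc finger proteins of the Ikaros family, to which Aiolos belongs.
Ahnak, chr19:8989034-8989283, plus strand: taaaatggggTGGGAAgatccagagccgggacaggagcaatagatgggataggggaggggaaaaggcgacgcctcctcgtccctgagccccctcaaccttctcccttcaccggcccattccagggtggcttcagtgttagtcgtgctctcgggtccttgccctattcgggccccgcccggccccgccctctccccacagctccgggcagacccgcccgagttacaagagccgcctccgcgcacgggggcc
Anxa1, chr19:20390672-20390921, minus strand: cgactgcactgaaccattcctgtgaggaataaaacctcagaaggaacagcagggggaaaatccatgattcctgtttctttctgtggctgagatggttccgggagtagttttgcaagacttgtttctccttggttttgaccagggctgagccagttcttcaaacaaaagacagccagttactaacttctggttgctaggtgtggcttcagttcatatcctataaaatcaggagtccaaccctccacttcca
Anxa5, chr3:36475888-36476137, minus strand: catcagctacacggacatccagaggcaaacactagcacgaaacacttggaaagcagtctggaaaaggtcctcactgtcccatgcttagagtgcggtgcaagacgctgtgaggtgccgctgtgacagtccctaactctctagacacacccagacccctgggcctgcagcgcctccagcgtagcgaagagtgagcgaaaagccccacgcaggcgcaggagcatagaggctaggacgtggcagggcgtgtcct
Of the 10 genes 8 had an entry in the promoter table, all except S100a10 and Anxa6. The letters TGGGAA, on either strand, were found once each in the windows of 4 of these 8 genes, at 240 bases before the start in Ahnak, 140 in S100a4, 78 in Anxa2 and 74 in S100a6. Among all 32851 windows of this length 21.6% held them. The octamer ATGCAAAT, the element at which OBF-1 joins Oct factors, was found on neither strand in any of the 8 windows and in 1.6% of all windows. A match is a string of letters and not a shown binding site.

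S100a10 was the S100 gene followed most closely, because earlier work had linked its expression to OBF-1 and because both of its probe sets were lower without Aiolos. The authors also show its level in pre-BII cells of these genotypes, among genes reported earlier to depend on OBF-1. They state that some of the genes named earlier held up in their data, and point to that display. The probe set with the higher signal had intensities of 1376 and 1537 in wild type and of 1564 and 1402 in OBF-1-deficient cells. It had 955 and 1006 in Aiolos-deficient cells and 1000 and 1071 in double-deficient cells. All 4 arrays without Aiolos lay below all 4 arrays with it, as 4.89% of all probe sets did, and the arrays with and without OBF-1 overlapped. From low to high the genotype means followed the order Aiolos single mutant, double mutant, wild type and OBF-1 single mutant. The arrays of the Aiolos single and the double mutant overlapped, as did those of wild type and the OBF-1 single mutant.

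S100a10 was tested for loss of OBF-1, which was not the effect it was chosen on. The arrays without Aiolos that chose it are nevertheless part of the mean over both backgrounds. The p-values of that mean are therefore not independent of the choice. Its level differed by 0.03 between the OBF-1 single mutant and wild type (log2, 95% interval -0.19 to 0.25, adjusted p = 0.945 from limma). Between double-mutant and Aiolos single-mutant cells it differed by 0.08 (log2, interval -0.14 to 0.30), given as a description since these arrays entered the choice. The second probe set, which is of a type that can bind related transcripts, had 578 and 633 in wild type and 588 and 709 in OBF-1-deficient cells, with 406 and 496 in Aiolos-deficient cells and 477 and 494 in double-deficient cells. Its mean difference for loss of OBF-1 was 0.10 (log2, interval -0.08 to 0.29, adjusted p = 0.64 from limma), against 0.05 for the first (interval -0.10 to 0.21, adjusted p = 0.811). Neither probe set passed, and the intervals reach mean rises of up to 0.29 for the second and 0.21 for the first. No change of S100a10 for loss of OBF-1 was thus called here, although the authors display it among genes reported to depend on OBF-1. For loss of Aiolos, which chose the gene, the first probe set showed a log2 difference of -0.57 in the presence and -0.52 in the absence of OBF-1, and the second -0.43 and -0.41. These estimates lay close together, with a difference between the OBF-1 backgrounds of 0.05 for the first probe set and 0.02 for the second. The standard errors of that difference, 0.142 and 0.172, leave room for a larger one.

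**Figure D1:**
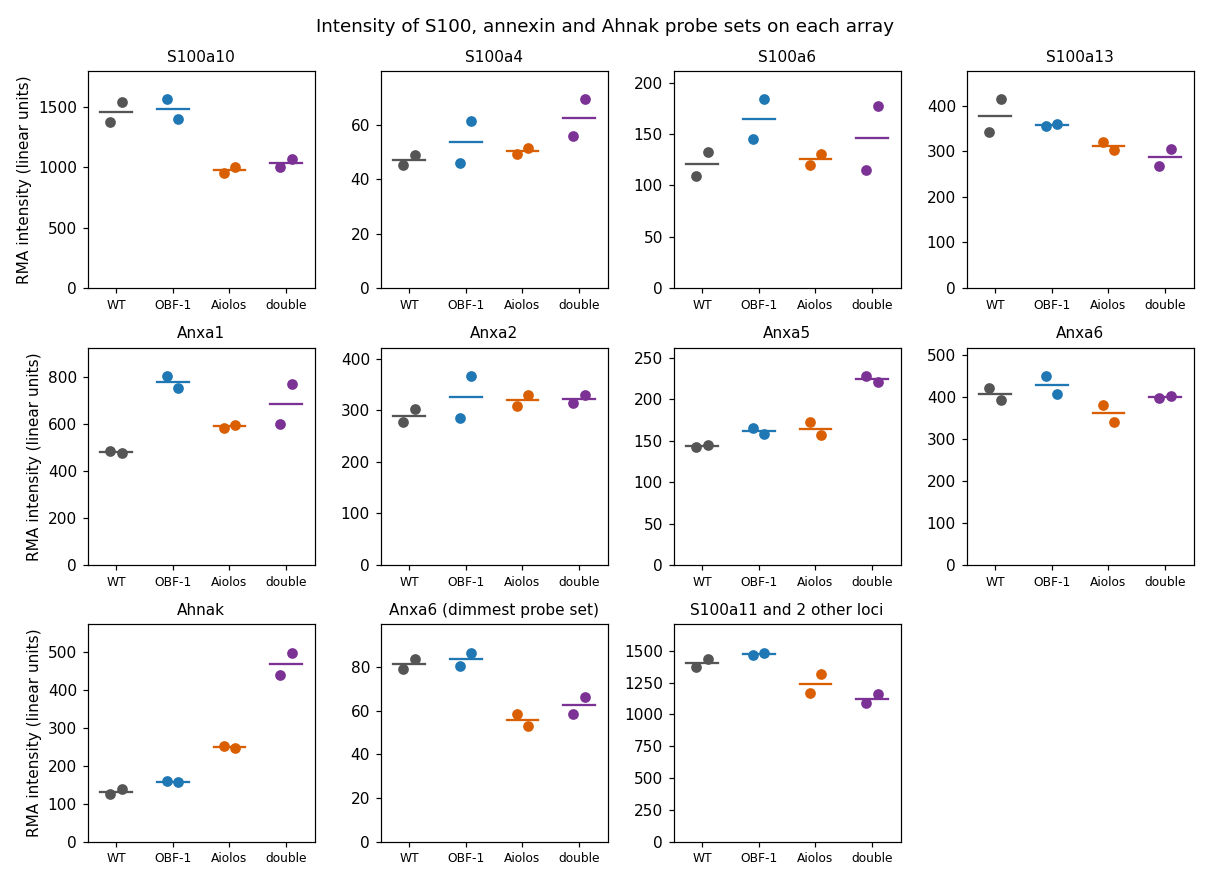
RMA intensity (linear units, vertical axis from 0) of the brightest probe set of each gene, of the dimmest Anxa6 probe set and of the probe set shared by S100a11 and 2 other loci, on the 2 arrays of each genotype (points) with their mean (bar). S100a10 lay between 1376 and 1564 on the arrays with Aiolos and between 955 and 1071 without it, whereas Ahnak climbed from 125 in wild type to 498 in double-deficient cells.

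Among the other S100 genes with a probe set of their own, S100a13 alone passed in a comparison, and there for loss of Aiolos. S100a13, whose protein takes part in the release of signal-peptide-less growth factors, had intensities of 342 and 414 in wild type, 355 and 359 in OBF-1-deficient cells, 320 and 303 in Aiolos-deficient cells and 268 and 305 in double-deficient cells. The 4 arrays without Aiolos all lay below the 4 with it, although the gap between 320 and 342 was narrow. Averaged over both OBF-1 backgrounds, loss of Aiolos went with a log2 difference of -0.30 (standard error 0.0782, limma adjusted p = 0.046), and the double mutant fell by 0.40 from wild type (standard error 0.111, limma adjusted p = 0.0466). Both calls stood close to the threshold and were lost with a second quantile normalization (adjusted p = 0.0684 and 0.0607), the latter also with only the compared genotypes (0.0824). The mean effect was lost on leaving out any 1 of 6 arrays, all but WT replicate 1 and double-mutant replicate 2 (adjusted p between 0.102 and 0.157), and the difference from wild type on leaving out any 1 of 7 arrays, all but WT replicate 1 (adjusted p between 0.0508 and 0.301).

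S100a4 and S100a6 are known for high expression in motile and in differentiating cells, S100a4 through its contact with non-muscle myosin. S100a6 had intensities of 109 and 133 in wild type, 145 and 184 in OBF-1-deficient cells, 120 and 131 in Aiolos-deficient cells and 115 and 177 in double-deficient cells. The OBF-1 single-mutant arrays lay above the wild type arrays, but those of the double mutant spread across the whole Aiolos single-mutant range. The mean difference for loss of OBF-1 was 0.31 (log2, standard error 0.129, adjusted p = 0.249 from limma) and passed only without double-mutant replicate 1 (0.47, adjusted p = 0.0367). S100a4 was dim, with 45.4 and 49.0 in wild type, 45.9 and 61.4 in OBF-1-deficient cells, 49.4 and 51.4 in Aiolos-deficient cells and 55.9 and 69.5 in double-deficient cells. Its difference between double-mutant and wild type cells was 0.40 (log2, standard error 0.140, adjusted p = 0.11 from limma), without overlap of the arrays, and it passed in no comparison.

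For S100a11, whose protein partners annexin A1, the array held only the probe set shared with S100a11-ps and Gm12854, so its signal cannot be given to 1 locus and it was left out of all counts. This probe set had 1369 and 1439 in wild type, 1469 and 1484 in OBF-1-deficient cells, 1171 and 1314 in Aiolos-deficient cells and 1086 and 1160 in double-deficient cells. It was lower on every array without Aiolos. The mean difference for loss of Aiolos was -0.29 (log2, standard error 0.0673, adjusted p = 0.028 from limma), and the call was lost on leaving out any 1 of 6 arrays, all but Aiolos replicate 2 and double-mutant replicate 2 (adjusted p between 0.0634 and 0.126). In the OBF-1 comparisons it differed by 0.07 in the presence and by -0.14 in the absence of Aiolos, and neither passed.

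Of the annexins, Anxa1 and Anxa5 rose in double-deficient cells, and Anxa1 also in OBF-1-deficient cells. Annexin A1 is a glucocorticoid-induced protein with anti-inflammatory activity that is abundant in granulocytes and monocytes. Anxa1 had intensities of 484 and 477 in wild type, 803 and 750 in OBF-1-deficient cells, 581 and 596 in Aiolos-deficient cells and 599 and 769 in double-deficient cells. Every mutant array lay above both wild type arrays, with the OBF-1 single mutant highest. In the absence of OBF-1 alone Anxa1 rose by 0.69 (log2, standard error 0.115, adjusted p = 0.00853 from limma), and it was the only 1 of the 17 probe sets that passed in this comparison, in which 2.09% of all probe sets did. With Aiolos also absent, the loss of OBF-1 went with 0.21 (log2, adjusted p = 0.409 from limma), and the difference between both backgrounds, -0.48, did not pass either (standard error 0.163, adjusted p = 0.32). The double mutant was above wild type by 0.50 (log2, standard error 0.115, adjusted p = 0.0193 from limma).

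The mean rise of Anxa1 without OBF-1 was 0.45 (log2, standard error 0.0814, adjusted p = 0.00641 from limma) and passed on leaving out any 1 array, with adjusted p up to 0.0312. The rise in OBF-1-deficient cells was lost without WT replicate 1 (adjusted p = 0.0696), WT replicate 2 (0.07) or OBF-1 replicate 1 (0.0697), and that in double-deficient cells without WT replicate 1 (0.0884), WT replicate 2 (0.105) or double-mutant replicate 2 (0.121). Some markers of granulocytes and monocytes were also higher without OBF-1. Set against wild type, OBF-1-deficient cells gave 4 higher and 0 lower calls among the 15 markers, where 2.09% of all probe sets passed. Double-deficient cells gave 8 higher and 0 lower calls among them, where 8.57% of all probe sets passed. In the mean over both losses of OBF-1, where 2.72% of all probe sets passed as higher, 4 of the 15 markers did and 11 did not pass, the 4 being Lyz2 (0.43), Ltf (0.39), Ngp (0.33) and Camp (0.33, all log2). S100a8 and S100a9, the abundant S100 genes of neutrophils, had 4574 and 4666 and 6038 and 5943 in wild type against 5042 and 6211 and 7111 and 7344 in OBF-1-deficient cells, and neither passed (log2 differences of 0.28 and 0.27, limma adjusted p = 0.3 and 0.172). In the absence of Aiolos loss of OBF-1 gave 0 calls among the 15 markers in limma, where 2.95% of all probe sets passed. So few calls would be looked for among 15 that nothing is read from the 0. Lyz2 (0.38, adjusted p = 0.0517 from limma) and Ltf (0.28) had an unadjusted p under 0.05, and S100a8 differed by 0.02 and S100a9 by 0.03 (log2). The part of these cells in the values of Anxa1, S100a4, S100a6 or any other gene listed was not tested.

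Anxa5, whose protein binds exposed phosphatidylserine and is widely used as a probe of dying cells, was highest in double-deficient cells. It had 142 and 145 in wild type, 165 and 158 in OBF-1-deficient cells, 172 and 157 in Aiolos-deficient cells and 228 and 221 in double-deficient cells. The single mutants overlapped with each other just above wild type, and both double-mutant arrays lay above all others. The double mutant exceeded wild type by 0.65 (log2, standard error 0.0911, adjusted p = 9e-04 from limma), a call that passed on leaving out any 1 array (adjusted p up to 0.0119) and in each other setting tried. It was also above the Aiolos single mutant by 0.45 (limma, adjusted p = 0.0202) and above the OBF-1 single mutant by 0.48 (limma, adjusted p = 0.018). The single mutants differed from wild type by 0.17 and 0.20 (log2, adjusted p = 0.467 and 0.274 from limma), and the excess of the double mutant over the sum of both was 0.28 (standard error 0.129), which did not pass (adjusted p = 0.425).

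In the mean over both backgrounds Anxa5 rose by 0.31 without OBF-1 (log2, adjusted p = 0.0153 from limma) and by 0.34 without Aiolos (adjusted p = 0.0108). Without 1 array, the mean effect of OBF-1 loss was lost for WT replicate 1 (adjusted p = 0.0554), OBF-1 replicate 1 (0.0592) or Aiolos replicate 2 (0.0829), and that of Aiolos loss for Aiolos replicate 1 (0.0568). The rise of the double over the Aiolos single mutant was lost without Aiolos replicate 2 (0.195), double-mutant replicate 1 (0.0933) or double-mutant replicate 2 (0.0815), and that over the OBF-1 single mutant without OBF-1 replicate 1 (0.0617), OBF-1 replicate 2 (0.132), double-mutant replicate 1 (0.103) or double-mutant replicate 2 (0.0575).

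Anxa6, which encodes an annexin with a doubled core that acts in membrane traffic and cholesterol transport, had 3 probe sets that did not behave alike. The brightest had 422 and 393 in wild type, 450 and 408 in OBF-1-deficient cells, 382 and 341 in Aiolos-deficient cells and 397 and 403 in double-deficient cells, and passed in no comparison. The dimmest had 79.1 and 83.8, 80.6 and 86.6, 58.4 and 53.1, and 58.7 and 66.2 in the same order of genotypes. On this probe set all 4 arrays without Aiolos lay below all 4 with it. Its mean difference for loss of Aiolos was -0.48 (log2, standard error 0.0711, adjusted p = 0.00217 from limma), against -0.14 for the brightest probe set (standard error 0.0696, adjusted p = 0.3 from limma). The mean fall passed on leaving out any 1 array (adjusted p up to 0.0128).

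The same dim Anxa6 probe set fell in Aiolos-deficient cells (-0.55, standard error 0.101, limma adjusted p = 0.0223) and between wild type and the double mutant (-0.39, standard error 0.101, limma adjusted p = 0.0346). Its fall from the OBF-1 single to the double mutant, -0.42 (adjusted p = 0.0494), was lost on leaving out any 1 of the 8 arrays (adjusted p between 0.0627 and 0.262) and in all 7 other settings that kept the probe set. The fall in Aiolos-deficient cells was lost without either wild type array (0.116 and 0.0956) or either Aiolos single-mutant array (0.0961 and 0.122), and that in double-deficient cells without WT replicate 1 (0.0936), WT replicate 2 (0.181) or double-mutant replicate 1 (0.216). The third Anxa6 probe set had 123 and 103 in wild type, 120 and 111 in OBF-1-deficient cells, 89.2 and 84.8 in Aiolos-deficient cells and 120 and 112 in double-deficient cells. It was low in Aiolos-deficient cells alone, 0.41 below the double mutant (log2, standard error 0.106, adjusted p = 0.0673 from limma), and passed in no comparison.

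Anxa2, the annexin that S100A10 joins, passed in no comparison. Its brightest probe set had 277 and 303 in wild type, 286 and 367 in OBF-1-deficient cells, 309 and 330 in Aiolos-deficient cells and 315 and 330 in double-deficient cells. The arrays of the genotypes lay close together. Loss of Aiolos went with a mean difference of 0.07 (log2, 95% interval -0.12 to 0.25, adjusted p = 0.714 from limma) and loss of OBF-1 with 0.09 (interval -0.10 to 0.27, adjusted p = 0.703). The other 2 Anxa2 probe sets had intensities between 7.06 and 15.9 on every array, too low to inform, and passed in no comparison.

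Among the brightest probe sets of the genes listed, that of Ahnak had the widest range as a fold. The Ahnak probe set probe set had 125 and 138 in wild type, 159 and 158 in OBF-1-deficient cells, 253 and 247 in Aiolos-deficient cells and 439 and 498 in double-deficient cells. No arrays of different genotypes overlapped, and the order ran from wild type over the OBF-1 and the Aiolos single mutant to the double mutant. This was also the order of scanning. Against wild type the double mutant stood 3.56-fold higher, the Aiolos single mutant 1.90-fold and the OBF-1 single mutant 1.20-fold. The values without Aiolos chose the gene, so the log2 differences of 0.93 in the presence and 1.56 in the absence of OBF-1 are given as a description only, as is the difference of 0.64 between them.

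The mean effect of OBF-1 loss was a rise of Ahnak by 0.59 (log2, standard error 0.0691, adjusted p = 0.000283 from limma). It passed on leaving out any 1 array (adjusted p up to 0.00246). By background, the difference was 0.27 in the presence of Aiolos (standard error 0.0977, limma adjusted p = 0.244). In the absence of Aiolos it was 0.90, given as a description. The double-mutant and Aiolos single-mutant arrays of this difference also entered the values that chose Ahnak. The mean over both backgrounds uses these arrays too, so its p-value is not independent of the choice. Without moderation of variances the mean rise did not pass (adjusted p = 0.0612).

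The other 3 Ahnak probe sets were dim, and none was highest in the double mutant. In order of brightness they ran from 37.7 to 51.0, from 22.5 to 29.3 and from 10.5 to 13.4 over all arrays. The first of them had 37.7 and 38.6 in wild type, 40.9 and 48.7 in OBF-1-deficient cells, 47.4 and 51.0 in Aiolos-deficient cells and 41.6 and 39.9 in double-deficient cells. Both single-mutant means lay above wild type on this probe set, by 0.37 for Aiolos and 0.23 for OBF-1 (log2). The Aiolos value is a description only, and the OBF-1 value was not called (limma, adjusted p = 0.367). The double mutant lay below the Aiolos single mutant. Loss of OBF-1 went with mean log2 differences of -0.02, -0.22 and -0.03 on the 3 probe sets (limma adjusted p = 0.937, 0.111 and 0.906). The mean rise of Ahnak without OBF-1 thus rested on 1 of 4 probe sets, the only one whose mean intensity, 252, was above 100.

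**Figure D2:**
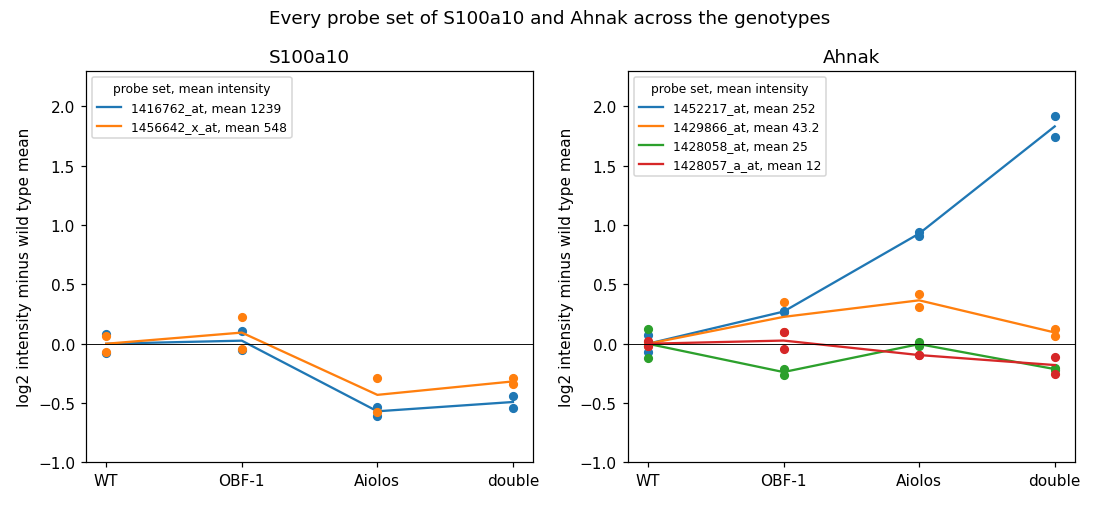
Log2 intensity relative to the wild type mean (vertical axis) for every probe set of S100a10 (left) and Ahnak (right) in the 4 genotypes (horizontal axis), with a point for each array and lines that join the genotype means as a guide only. Both S100a10 probe sets dropped without Aiolos, whereas the Ahnak probe set with a mean intensity of 252 climbed to its highest in the double mutant. That with a mean of 43.2 was raised in both single mutants and close to wild type in the double mutant, and the other 2, with means of 12 and 25, lay below the wild type mean there.

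Counted over the whole set, 3 of 17 probe sets passed in the mean effect of OBF-1 loss, all of them higher (Anxa1, Anxa5 and Ahnak), where 5.02% of all probe sets passed and 2.72% passed as higher. Ahnak enters this count although the arrays without Aiolos, on which it was chosen, are part of the mean. The median log2 difference of the 17 was 0.10, against -0.0012 over all probe sets. In the absence of Aiolos, loss of OBF-1 gave 2 calls among the 17 where 2.95% of all probe sets passed. These were Anxa5 and Ahnak, and since Ahnak was chosen on these arrays, nothing is read from its part in the count. For loss of Aiolos, only the 11 probe sets of the genes not chosen for it were counted. Of these, 3 passed in the mean effect, Anxa5 as higher and S100a13 and the dim Anxa6 probe set as lower, where 6.17% of all probe sets passed, and the median of the 11 was -0.07 against 0.012 over all. The counts were 1 of 11 in Aiolos-deficient cells, where 1.84% of all probe sets passed, 2 of 11 between the double and the OBF-1 single mutant, where 2.63% passed, and 4 of 11 between the double mutant and wild type, where 8.57% passed. None of the 11 passed in limma for the interaction of both losses, where 0.186% of all did, and Anxa1 and the third Anxa6 probe set had an unadjusted p under 0.05. Without moderation of variances all the calls named here were lost except that of Anxa5 between the double mutant and wild type, and most calls over all probe sets were lost as well. With so few probe sets, and with genes such as Anxa6 counted through several, these shares describe the members and carry no test.

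**Figure D3:**
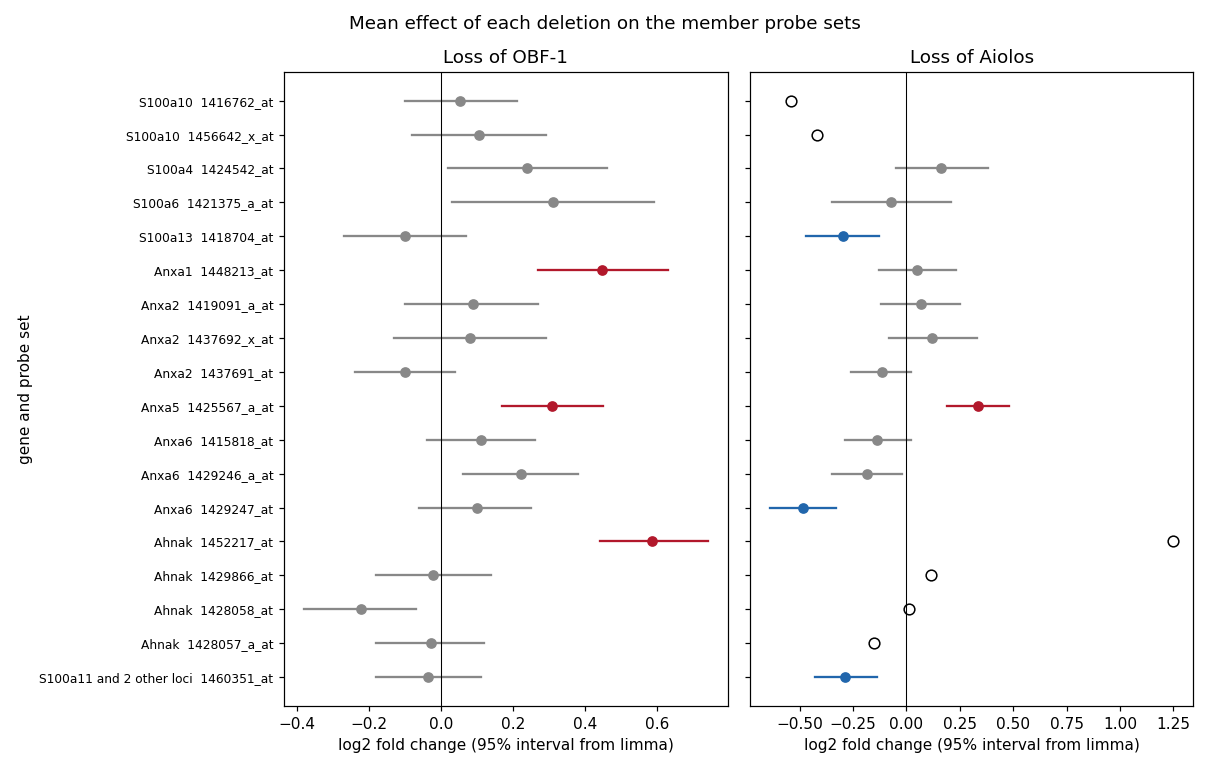
Mean log2 fold change (horizontal axes, which differ in scale) of each probe set for loss of OBF-1 (left, where the arrays also differ in fluidics module) and for loss of Aiolos (right, where they also differ in station), with 95% intervals from limma as lines. Red points passed as higher, blue as lower and grey did not pass. Open circles, without an interval, are the probe sets of S100a10 and Ahnak, which were chosen on the effect of Aiolos loss.

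None of the 17 other genes measured from the S100 and annexin lists passed in either mean effect. Of all probe sets 5.02% passed for OBF-1 and 6.17% for Aiolos. Many of these genes were dim, with wild type means of 11.3 for S100g and 13.1 for Anxa13, so nothing is read from this. The S100 list held 13 other genes, of which 10 were measured, among them S100pbp, which encodes an S100-binding protein rather than an S100 protein. None passed for the mean loss of OBF-1 or of Aiolos, with S100a9 the nearest at 0.15 for OBF-1 (log2, adjusted p = 0.233 from limma). The annexin list held 9 other genes, including Ahnak2, which is not an annexin, and 7 were measured, all of them annexins. None of these passed, with Anxa4 at 0.12 for OBF-1 (adjusted p = 0.546 from limma) and Anxa9 at 0.16 for Aiolos (adjusted p = 0.295). At an unadjusted p under 0.05 these 17 genes held S100a9 in the mean effect of OBF-1 loss and none in that of Aiolos loss, S100a8, S100a9, Anxa3 and Anxa4 in the OBF-1 single mutant, and Anxa3 and Anxa9 in the Aiolos single mutant. The 4 measured receptors of extracellular S100 proteins and annexin A1, of 5 listed, did not pass either, with Tlr4 for OBF-1 and Fpr2 for Aiolos at an unadjusted p under 0.05. The Toll-like receptor gene Tlr4 came nearest, with 0.25 for OBF-1 (adjusted p = 0.0645 from limma), and the formyl peptide receptor gene Fpr2, a receptor of annexin A1, differed by 0.18 for Aiolos (adjusted p = 0.234).

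Among 25 partners and membrane repair genes 24 were measured, and 1 passed as higher and 1 as lower for each loss, where 5.02% of all probe sets passed for OBF-1 and 6.17% for Aiolos. Between the double mutant and wild type 2 passed as higher (Ctsb and Pdcd6) and 2 as lower (Myof and Sri), where 8.57% of all probe sets passed. Ctsb, which encodes the protease cathepsin B, had 1130 and 1113 in wild type, 1302 and 1272 in OBF-1-deficient cells, 1357 and 1350 in Aiolos-deficient cells and 1893 and 1902 in double-deficient cells. Its genotypes did not overlap, and the double mutant stood highest, as for Anxa5 and Ahnak. It rose by 0.34 for OBF-1 (log2, standard error 0.0605, adjusted p = 0.00532 from limma) and by 0.42 for Aiolos (adjusted p = 0.00206). Myof, which encodes the membrane repair protein myoferlin, fell by 0.35 for OBF-1 (log2, adjusted p = 0.0181 from limma) at intensities of 29.8 to 47.5. Sri, which encodes the calcium-binding protein sorcin, fell by 0.32 for Aiolos (log2, adjusted p = 0.015 from limma).

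**Figure D4:**
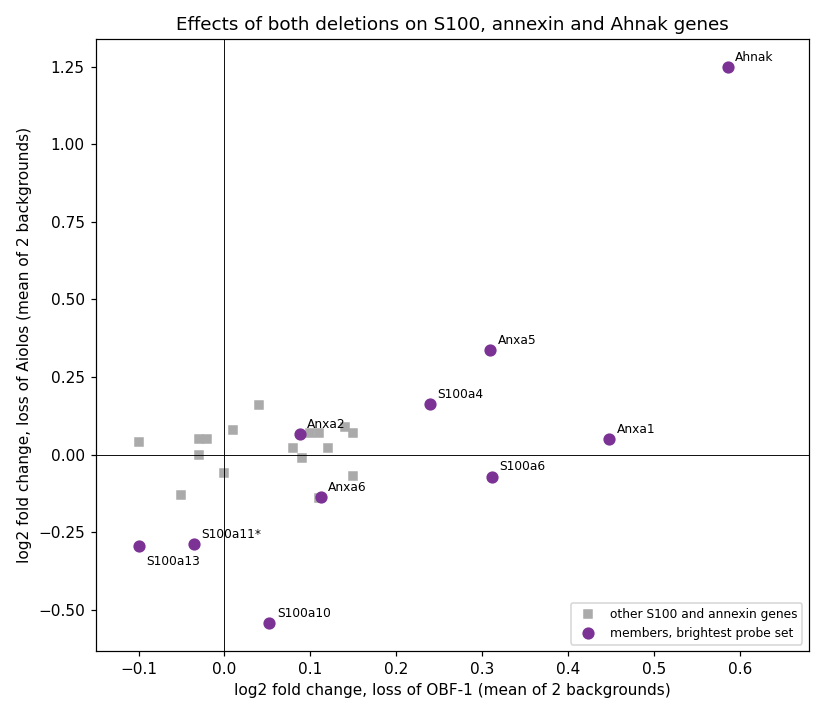
Mean log2 fold change for loss of OBF-1 (horizontal axis) against that for loss of Aiolos (vertical axis), for the brightest probe set of each listed gene (circles). Squares are the 17 other genes measured from the S100 and annexin lists, with the S100-binding protein gene S100pbp among them. The asterisk marks the probe set that S100a11 shares with 2 other loci. Ahnak lies alone at 0.59 and 1.25, S100a10 at 0.05 and -0.54, and the squares gather near 0.

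The genes whose level ran most like that of S100a10 or Ahnak over the 8 arrays were found by the smallest root mean square difference of centred log2 values among 8462 probe sets with 1 gene name and a mean intensity of at least 100. Myadm was nearest to S100a10, with a difference of 0.0679, and had mean intensities of 429 in wild type, 464 in OBF-1-deficient cells, 314 in Aiolos-deficient cells and 318 in double-deficient cells. Pdlim1 (0.0845), Sec11c (0.0856), Phgdh (0.0909) and Aurkb (0.0915) followed. Pfn2, which encodes the actin-binding protein profilin 2, was nearest to Ahnak, with a difference of 0.159 and means of 105, 150, 190 and 354 in the same order. Pard6g (0.173), Fzd9 (0.181), Lmo2 (0.186) and Lgr5 (0.195) came next. The distances around Ahnak were larger than those around S100a10, and all 10 are a ranking without a test.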

How the data were processed

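RNA of 8 arrays, 2 for each of 4 genotypes, was measured on MOE430A GeneChips. The authors deposited linear intensities made with RMA, per the labels (version not given in the sources used here), while the methods of the study name Affymetrix Microarray suite 5 and GeneSpring 5. Array medians were 66.8 to 69.4, and the number of arrays limits the precision. Control probe sets (64 of 22690) were left out, and names came from the platform's gene table: 20380 probe sets had 1 symbol, 691 several and 1555 none. A log2 was taken and fitted with limma 3.58.1 in R 4.3.3, 1 mean for each genotype, 8 comparisons and variance moderation (prior degrees of freedom 7.69, residual 4). Deposited station numbers, read from the scanner records, gave the batches.

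The members and gene lists were chosen with earlier results of these data known. Every probe set of the listed genes is named, that with the highest mean intensity first, with up to 4 members of each other list by the smallest p and 5 genes most like S100a10 and Ahnak. Motifs were searched in the 250 bases before the RefSeq start. The treatment was tested on simulated data for the mean Aiolos effect over 22626 probe sets with 200 changed, in 10 runs: 98.9% of changes of 0.5 (log2) and 100% of those of 1 were recovered, and 7.66% of calls were false. Alternatives were a second quantile normalization, median centring, log2(intensity + 16), a mean of at least 100 in a genotype, no moderation, a replicate block, eBayes with trend and robust, a fit to the compared genotypes alone, and leaving out each array.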

Additional observations from a re-analysis of the deposited data

How the results depend on the processing

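No direction of a called value reversed under any alternative. Without moderation of variances no listed probe set passed in the OBF-1 single mutant, the Aiolos single mutant, the double mutant against either single mutant, or either mean effect (0 each), and 1 passed between the double mutant and wild type, Anxa5. Few of all 22626 probe sets passed in that setting either. Higher and lower calls numbered 0 and 9 in the OBF-1 single mutant and 3 and 3 in the Aiolos single mutant. They numbered 11 and 11 between the double and the Aiolos single mutant, and 18 and 8 between the double and the OBF-1 single mutant. The mean effects had 62 and 75 for OBF-1 and 24 and 13 for Aiolos, and the double mutant against wild type 195 and 164. With only probe sets of a mean of at least 100 in a genotype, which removes the dim Anxa6 probe set, 0 passed in the Aiolos single mutant and 1 between the double and the OBF-1 single mutant. The latter count was also 1 with a second quantile normalization, median centring, log2(intensity + 16), a replicate block, eBayes with trend and robust, and only the compared genotypes. With only the compared genotypes 2 passed between the double mutant and wild type. Leaving out 1 array gave 0 to 1 calls in the OBF-1 single mutant, 1 to 2 between the double and the Aiolos single mutant, 2 to 4 in the mean OBF-1 effect, 0 to 1 in the Aiolos single mutant, 0 to 1 between the double and the OBF-1 single mutant, 1 to 3 in the mean Aiolos effect, 1 to 3 between the double mutant and wild type, and 0 for the interaction. The cause of these changes was not tested, apart from the removal named above.

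The replicate numbers share only a name: the differences between the 2 replicates of a genotype correlated between genotypes with an r of -0.088 to 0.1. With the replicate number as a block, S100a4 passed between the double mutant and wild type (0.40, adjusted p = 0.0421 from limma), the third Anxa6 probe set passed between the double and the Aiolos single mutant (0.41, adjusted p = 0.0383), and the dim Anxa6 probe set did not pass between the double and the OBF-1 single mutant (-0.42, adjusted p = 0.0529). The shared S100a11 probe set, outside the counts, passed between the double and the OBF-1 single mutant under 5 alternatives, the replicate block among them (adjusted p = 0.0459), against 0.0527 as reported. Signal limits the dim probe sets of Anxa2 and Ahnak. Over all probe sets, median centring moved the split of higher and lower calls from 655 and 741 to 519 and 903 in the mean Aiolos effect and from 188 and 229 to 136 and 307 in the Aiolos single mutant.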
